A study of Mus musculus with 12 samples.

Results

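The anti-Rtl1 miRNAs are both arms of 5 hairpins, miR-431, miR-433, miR-127, miR-434 and miR-136, that lie antisense to the gene Rtl1 in the imprinted Dlk1-Dio3 region of mouse chromosome 12. They were taken by name from the count tables, where the 10 names stand among 1915 mature miRNA names, each with 1 row in each of 2 tables. The data are miRNA counts from mouse striatum in 12 libraries, 3 in each of 4 groups. The WT control and WT shTRAX groups are wild type mice of the strain labelled B6CBAFI/J. The R6/2 control and R6/2 shTRAX groups carry the R6/2 transgene, B6CBA-Tg(HDexon1)62Gpb/3J, which expresses exon 1 of human huntingtin and is used as a model of Huntington's disease. Every mouse was injected in both striata at 5 weeks of age with an adeno-associated virus (AAV) and was sampled at 10.5 weeks. The control groups received AAV with a control shRNA and the shTRAX groups AAV with an shRNA against TRAX, the product of Tsnax, so no group was left without virus. The promoter of the AAV and the cells it reached were not given in the sources used here, and Tsnax mRNA is not measured by miRNA sequencing. Whether the libraries of a group stem from separate animals is not said in the labels, so the p-values reflect spread between samples that may be technical.

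The Dlk1-Dio3 region is imprinted. Its miRNAs come from the maternal chromosome and Rtl1, a protein-coding gene derived from a retrotransposon, is read from the paternal chromosome on the opposite strand. Because the antisense miRNAs pair with Rtl1 mRNA along their whole length, they can direct its cleavage in the manner of a small interfering RNA, which is best known from the placenta. In mice, loss of miR-127 raises Rtl1 and disturbs the placental labyrinth. In brain the miRNAs of the region are abundant in neurons. A hairpin gives a 5p and a 3p arm, and the arm that is retained in an Argonaute protein can silence mRNAs through bases 2 to 8, the seed. TRAX forms with translin an RNA-degrading complex that has been reported to act on precursor miRNAs, and the comparisons below ask how the levels of these 10 miRNAs differ with shTRAX and with the R6/2 transgene.

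The mature sequences are shown because pairing with Rtl1 defines the group and because their base composition differs. All 10 were found in the RefSeq miRNA table (build GRCm38.p6) and are written 5′ to 3′ with the seed in capitals, in the order of the hairpins along the plus strand.
mmu-miR-431-5p: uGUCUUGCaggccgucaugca
mmu-miR-431-3p: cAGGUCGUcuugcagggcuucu
mmu-miR-433-5p: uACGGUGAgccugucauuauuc
mmu-miR-433-3p: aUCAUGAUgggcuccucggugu
mmu-miR-127-5p: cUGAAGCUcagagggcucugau
mmu-miR-127-3p: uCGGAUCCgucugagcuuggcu
mmu-miR-434-5p: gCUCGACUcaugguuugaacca
mmu-miR-434-3p: uUUGAACCaucacucgacuccu
mmu-miR-136-5p: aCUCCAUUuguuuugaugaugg
mmu-miR-136-3p: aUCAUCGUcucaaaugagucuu
The 10 seeds were distinct, and none of them occurred as bases 2 to 8 of another mature miRNA among the 1679 in the table. GC content ran from 36.4% in both arms of miR-136 to 59.1% in miR-127-3p and miR-431-3p. The arms of miR-431 share a run of 10 bases, GUCUUGCAGG, and the arms of miR-434 share 9, UUUGAACCA.

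In GENCODE's annotation of GRCm38 the 5 hairpins span 4942 bases, from 109590447 to 109595388 on the plus strand of chromosome 12. Each lies inside the coding part of an exon of Rtl1, which runs from 109589193 to 109600330 on the minus strand. The reverse complement of every one of the 10 mature sequences was found in the annotated Rtl1 transcript, in its coding sequence. For miR-127-3p that Rtl1 site reads, 5′ to 3′,
Rtl1 site of miR-127-3p: agccaagcucagacggauccga
and the miR-127 hairpin, chr12:109592846-109592915 on the plus strand, is shown with both arms in capitals because the balance of its arms is described below.
miR-127 hairpin: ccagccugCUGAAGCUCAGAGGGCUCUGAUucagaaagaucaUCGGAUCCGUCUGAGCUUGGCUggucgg
Another pair of annotated hairpins lies in the same exon. miR-432 had 0 counts in the 12 libraries, and miR-3071, on the strand opposite to miR-136, had 5 counts over all libraries for its 3p arm and 0 for its 5p arm. Whether the authors' counting used strand is not given in the sources used here, but miR-136 and its antisense neighbour are separate rows with these separate counts.

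Deposited columns summed to 23462111 to 28589763 counts, of which 13849777 to 16907910 remained after 1 row per mature name was kept. The library R6/2 shTRAX replicate 3 lay far from the remaining 11 on the first principal component, at 21.06 where they ran from -4.93 to 1.02. Its log2 deviation from the mean of the libraries rose with GC content of the mature sequence over 564 miRNAs (Spearman's rho 0.61). In the other libraries that rho ran from -0.37 to 0.08, from -0.37 to -0.25 among R6/2 control and from -0.16 to 0.08 among WT control libraries. Comparisons that involve R6/2 shTRAX are therefore given with and without replicate 3. Each of the 7 neuronal marker miRNAs had counts in every library. Their summed level was 241607 to 248348 CPM in WT control and 243432 to 273492 CPM in R6/2 control. CPM here is a count scaled to a common library size after TMM normalization over all mature miRNAs.

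All 10 members passed the expression filter, and their mean levels ran from 9.06 to 13506 CPM. Over the 12 libraries the mean was 13506 CPM for miR-127-3p, 3534 for miR-434-3p, 3048 for miR-136-3p, 2250 for miR-434-5p and 1097 for miR-136-5p. It was 864 CPM for miR-127-5p, 334 for miR-431-5p, 49.2 for miR-433-3p, 29.1 for miR-431-3p and 9.06 for miR-433-5p. miR-127-3p ranked 18 by mean among all mature miRNAs and miR-433-5p ranked 407. The ranges over the libraries did not overlap between miR-127-3p and miR-434-3p, between miR-434-5p and miR-136-5p, between miR-127-5p and miR-431-5p, between miR-431-5p and miR-433-3p, or between miR-431-3p and miR-433-5p. The other neighbours in the order overlapped. miR-434-3p exceeded miR-136-3p in 9 of 12 libraries, and the other overlapping neighbours kept their order in 11 of 12. The 3p arm was the more abundant in 4 hairpins and the 5p arm in miR-431. Mature lengths are 21 or 22 bases, and how efficiently each sequence entered the libraries was not measured.

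**Figure D1:**
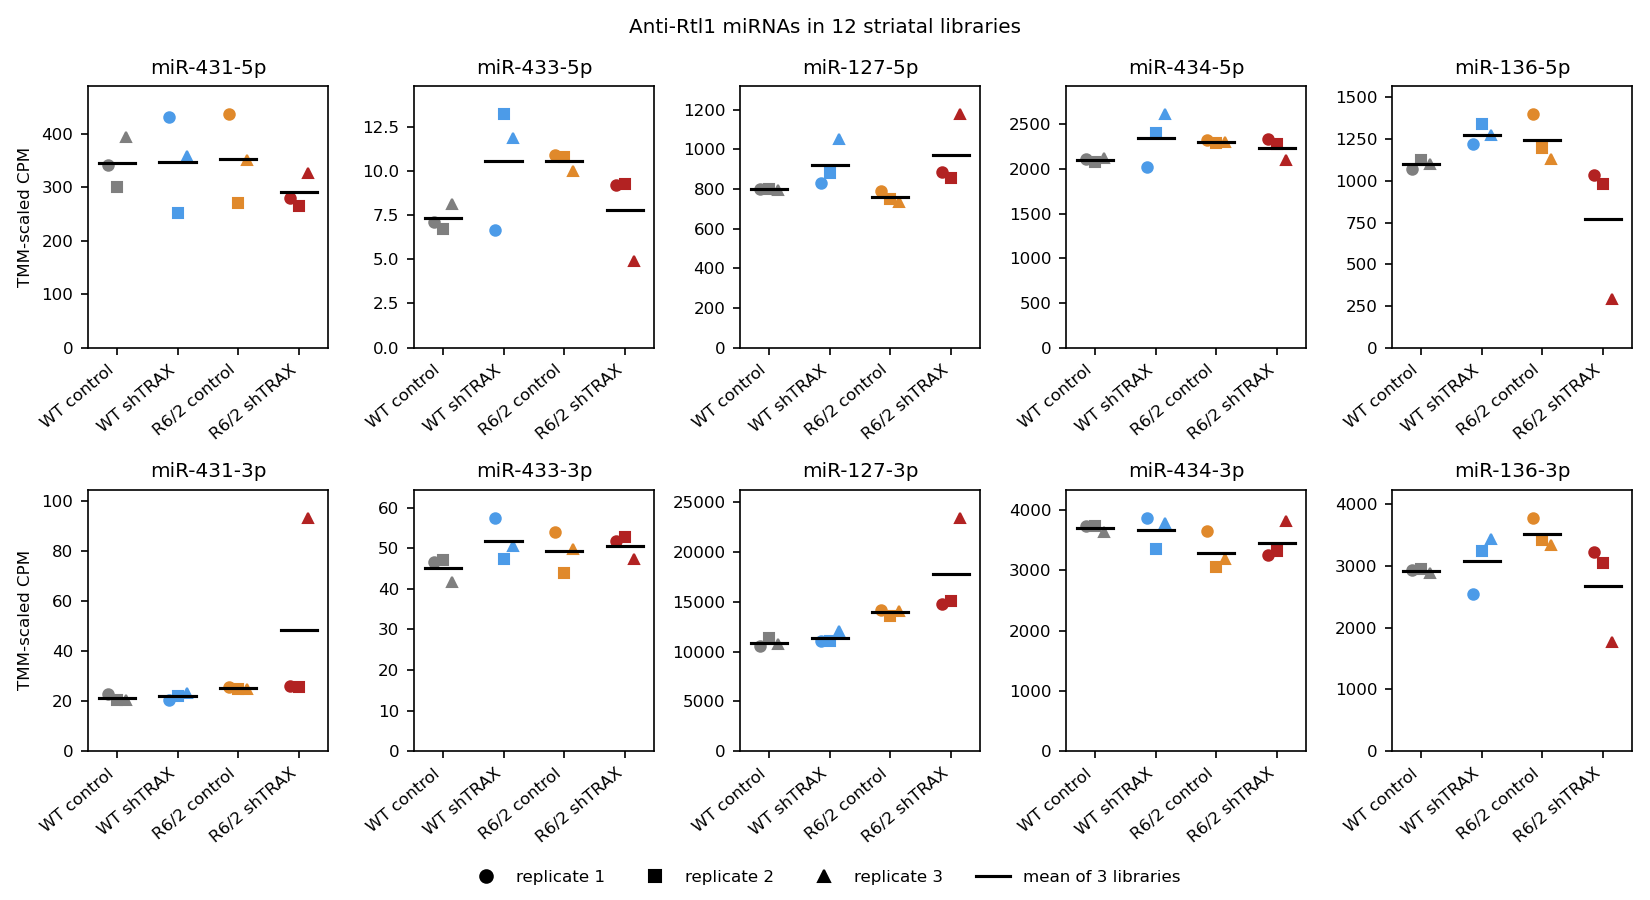
TMM-scaled CPM of each member (panels; vertical axes start at 0 and differ) in the 12 libraries by group; symbols mark the replicate and bars the mean of 3 libraries. The R6/2 libraries lie above the WT libraries for miR-127-3p, and R6/2 shTRAX replicate 3 (red triangle) is far from its group for miR-136-5p, miR-431-3p and miR-127-3p.

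The members in R6/2 shTRAX replicate 3 departed from their group broadly in the order of their GC content. miR-136-5p, with 36.4% GC, stood at 290 CPM in replicate 3 against 1036 and 978 CPM in replicates 1 and 2, a log2 ratio to their mean of -1.79. miR-431-3p, with 59.1% GC, stood at 93.3 against 25.9 and 25.6 CPM, a log2 ratio of 1.82. The remaining members fell between these, with miR-136-3p at -0.83, miR-433-5p at -0.80 and miR-127-3p at 0.65. Over the 10 members Spearman's rho of this ratio with GC content was 0.90, and over 564 miRNAs it was 0.62. These are descriptions of 1 library against 2 others, and the miRNAs share that library.

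**Figure D2:**
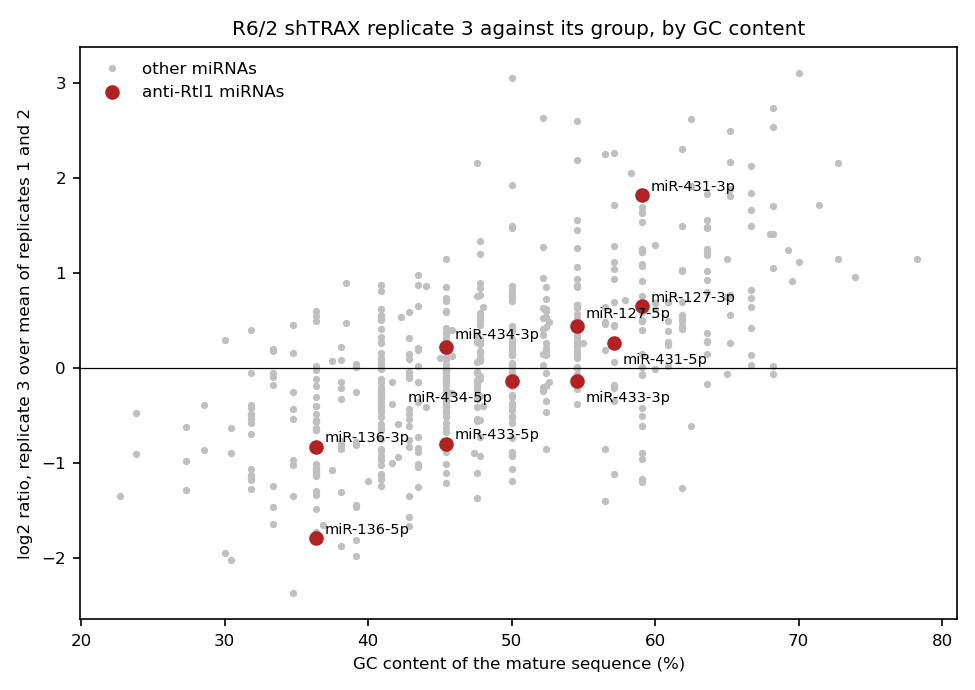
Log2 ratio of CPM in R6/2 shTRAX replicate 3 to the mean of replicates 1 and 2 (vertical axis) against GC content of the mature sequence in percent (horizontal axis), for 564 miRNAs with members in red. Members run from -1.79 for miR-136-5p at 36.4% GC to 1.82 for miR-431-3p at 59.1% GC.

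The R6/2 transgene was first compared with WT under control AAV. miR-127-3p, the most abundant member, stood at 14176, 13600 and 14038 CPM in the R6/2 control libraries and at 10580, 11354 and 10745 CPM in the WT control libraries. Every R6/2 library lay above every WT library, with means of 13938 ± 301 and 10893 ± 407 CPM (SD, n = 3 each). In the fit over 12 libraries, which share 1 estimate of the spread, the log2 fold change was 0.36 ± 0.15 (SE), a ratio of 1.28, and did not pass (edgeR quasi-likelihood test, adjusted p = 0.183). The adjusted p ran from 0.000564 to 0.298 over the alternatives, and the log2 fold change from 0.29 to 0.51. The call was made without R6/2 shTRAX replicate 3, a library outside this comparison that enters the shared estimate of the spread (0.37 ± 0.05, edgeR adjusted p = 0.000564), with only the 6 libraries compared (0.36 ± 0.04, edgeR adjusted p = 0.000639), and with an offset for GC content in each library (0.51 ± 0.09, edgeR adjusted p = 0.00315). In bulk tissue, a change in the number of cells of a type and a change in miRNA per cell cannot be told apart. Each genotype has its own deposited count table, so a difference in processing between the tables cannot be told apart from genotype either.

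No member passed the threshold of an adjusted p under 0.05 in this comparison with edgeR, where 10.6% of the 689 miRNAs tested did. At an unadjusted p under 0.05 edgeR gave 1 of 10, miR-127-3p, against 23.9% of all. DESeq2 called none of the 10 members and 106 of the 689 miRNAs. The groups did not overlap for 7 of 10 members, 6 of them higher in R6/2 and 1 lower. Of all miRNAs tested 48.9% did not overlap, 27.3% being higher and 21.6% lower. The log2 fold change was above 0 for 8 of 10 (7 of 10 under RLE and total count scaling, where miR-431-5p changed sign) and for 52.8% of all miRNAs, with medians of 0.15 and 0.03. Without R6/2 shTRAX replicate 3, 30% of 700 miRNAs passed and so did 2 members, miR-127-3p and miR-431-3p. With only the 6 libraries compared, 232 of 660 miRNAs passed, among them miR-127-3p, miR-136-3p and miR-433-5p.

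Of the arms of miR-136, miR-136-3p stood at 3781, 3425 and 3342 CPM in R6/2 control and at 2930, 2951 and 2886 CPM in WT control (log2 fold change 0.27 ± 0.20, edgeR adjusted p = 0.474). The groups did not overlap. With only the 6 libraries compared its adjusted p was 0.00602 (edgeR). miR-136-5p stood at 1401, 1196 and 1131 CPM against 1074, 1122 and 1104 CPM, again without overlap (0.18 ± 0.34, edgeR adjusted p = 0.798).

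The low arms gave the following values. miR-433-5p stood at 10.9, 10.8 and 9.98 CPM in R6/2 control against 7.09, 6.74 and 8.11 CPM in WT control, which rests on 103 to 149 counts a library. Its groups did not overlap, with a log2 fold change of 0.53 ± 0.28 (edgeR adjusted p = 0.281, and 0.00851 with only the 6 libraries compared). miR-431-3p stood at 25.8, 24.6 and 24.7 CPM against 22.8, 20.5 and 20.5 CPM, without overlap (0.24 ± 0.41, edgeR adjusted p = 0.771). Without R6/2 shTRAX replicate 3 it was 0.25 ± 0.09 (edgeR adjusted p = 0.0498).

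Of the remaining arms, miR-434-5p did not overlap either, at 2328, 2289 and 2302 CPM in R6/2 control against 2112, 2083 and 2125 CPM in WT control (0.13 ± 0.11, edgeR adjusted p = 0.515). miR-127-5p was the member with all R6/2 control libraries below the WT ones, at 789, 751 and 734 CPM against 800, 802 and 797 CPM (-0.08 ± 0.14, edgeR adjusted p = 0.776). With the GC offsets its log2 fold change was 0.04. The groups overlapped for miR-431-5p, miR-433-3p and miR-434-3p. Summed levels of the 4 vessel marker miRNAs were 34978 to 37944 CPM in R6/2 control and 30344 to 30580 in WT control, and those of the 3 muscle markers 1077 to 1230 and 1322 to 1471. The 7 markers of choroid plexus and ependyma summed to 2049 to 8891 CPM in R6/2 control and 2050 to 2438 in WT control. No marker in these lists was at 0, and their part in these differences was not tested.

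Under shTRAX AAV, miR-127-3p was higher in R6/2 than in WT. It stood at 14816, 15102 and 23464 CPM in the R6/2 shTRAX libraries and at 11023, 11087 and 12087 CPM in the WT shTRAX libraries. All R6/2 libraries lay above all WT libraries, replicate 3 by the widest margin. The means were 17794 ± 4912 and 11399 ± 597 CPM (SD, n = 3 each), the log2 fold change 0.64 ± 0.15, a ratio of 1.56 (edgeR adjusted p = 0.0235). Without R6/2 shTRAX replicate 3 the value was 0.39 ± 0.06 (edgeR adjusted p = 0.00112). The call ended without WT shTRAX replicate 1 (0.59 ± 0.17, edgeR adjusted p = 0.0639), without WT shTRAX replicate 2 (0.61 ± 0.17, edgeR adjusted p = 0.0628) and with only the 6 libraries compared (0.62 ± 0.19, edgeR adjusted p = 0.192). Over the alternatives the adjusted p ran from 0.00112 to 0.192.

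miR-127-3p was the 1 member of 10 that passed here, where 13.8% of 689 miRNAs did, 7.98% being higher in R6/2. At an unadjusted p under 0.05 there were 2 of 10, against 32.7% of all. The groups did not overlap for 3 of 10 members, miR-127-3p and miR-431-3p higher and miR-136-5p lower, against 30.5% of all miRNAs. The median log2 fold change of the members was -0.08, against 0.04 over all miRNAs. Without R6/2 shTRAX replicate 3, 2 of 10 members passed, against 20.1% of 700 miRNAs (edgeR). Then 3 of 10 had an edgeR unadjusted p under 0.05 (33.1% of all). The groups did not overlap for 4 of 10 (46% of all), miR-434-3p being the addition. Scaling to total counts moved the median of all miRNAs by -0.11 in this comparison, and miR-127-3p then had a log2 fold change of 0.53 (edgeR adjusted p = 0.0289).

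The other non-overlapping members had smaller differences without R6/2 shTRAX replicate 3. miR-136-5p stood at 1036, 978 and 290 CPM in R6/2 shTRAX against 1220, 1338 and 1274 CPM in WT shTRAX (-0.73 ± 0.35, edgeR adjusted p = 0.168). Without replicate 3 its log2 fold change was -0.34 ± 0.09 (edgeR adjusted p = 0.0262), in a fit that called 20.1% of 700 miRNAs. miR-431-3p stood at 25.9, 25.6 and 93.3 CPM against 20.5, 22.0 and 23.4 CPM (1.13 ± 0.41, edgeR adjusted p = 0.0894). Without replicate 3 it was 0.23 ± 0.10 (edgeR adjusted p = 0.125), while leaving out replicate 1 or 2 gave adjusted p of 0.0386 and 0.0376 (edgeR). Vessel markers here summed to 31055 to 38199 CPM in R6/2 shTRAX and 28830 to 34005 in WT shTRAX, and microglial and blood markers to 2076 to 3477 and 3623 to 16914. Markers of choroid plexus and ependyma summed to 5415 to 6397 CPM in R6/2 shTRAX and 2087 to 5743 in WT shTRAX. None was at 0, and their part in these values was not tested.

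**Figure D3:**
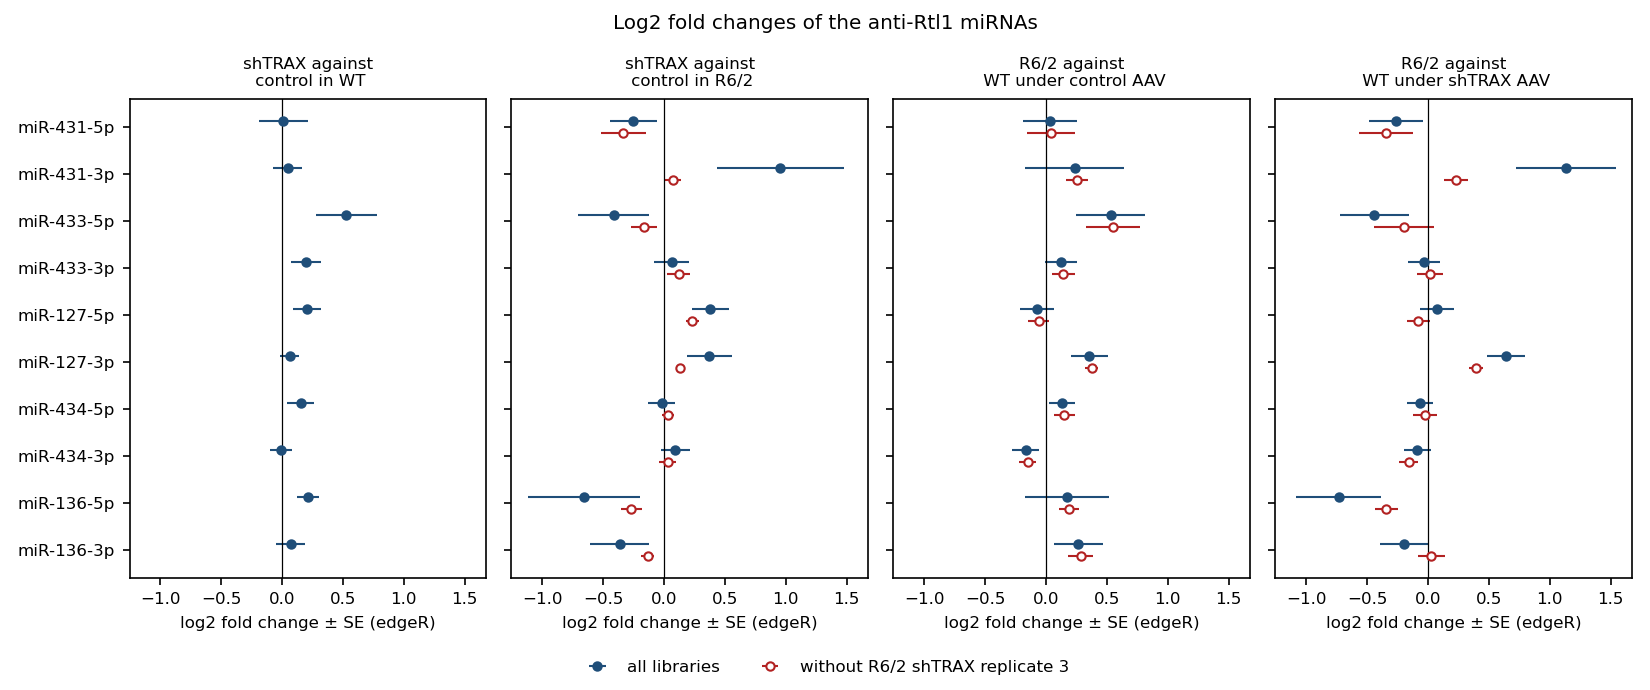
Log2 fold changes ± SE (edgeR) of the 10 members in 4 comparisons, with all libraries (blue) and without R6/2 shTRAX replicate 3 (red, open; not part of the WT comparison). miR-127-3p is at 0.36 and 0.64 in the genotype comparisons under control and shTRAX AAV, and the values of miR-431-3p and miR-136-5p that involve R6/2 shTRAX lie closer to 0 without that library.

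The shTRAX effect in R6/2 was compared next. No member passed among R6/2 libraries, and 0% of the 651 miRNAs tested did with edgeR, while DESeq2 called 13 of the 651 and none of the members. At an unadjusted p under 0.05 edgeR gave 1 of 10 members, miR-127-5p, against 10.4% of all. The groups did not overlap for 5 of 10, both arms of miR-127 higher and both arms of miR-136 and miR-433-5p lower. Of all miRNAs 30.4% did not overlap, 13.5% being higher and 16.9% lower. Without replicate 3, edgeR called none of the members and 0.602% of 664 miRNAs. Then 3 of 10 members had an unadjusted p under 0.05 (17.2% of all), and the same 5 members did not overlap, against 36.1%.

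miR-127-5p stood at 887, 855 and 1179 CPM in R6/2 shTRAX and at 789, 751 and 734 CPM in R6/2 control. The means were 974 ± 178 and 757.9 ± 28.0 CPM (SD, n = 3 each) and the log2 fold change 0.38 ± 0.15 (edgeR unadjusted p = 0.0415, adjusted p = 0.428). Without replicate 3 it was 0.23 ± 0.05 (edgeR adjusted p = 0.135). Its partner arm miR-127-3p, with the library values given above, had a log2 fold change of 0.37 ± 0.19 (edgeR adjusted p = 0.428) and, without replicate 3, of 0.13 ± 0.04 (edgeR adjusted p = 0.206). With the GC offsets the log2 fold change of miR-127-3p was -0.01.

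Both arms of miR-136 had lower values under shTRAX in R6/2. miR-136-5p stood at 1036, 978 and 290 CPM against 1401, 1196 and 1131 CPM (-0.66 ± 0.46, edgeR adjusted p = 0.496), and miR-136-3p at 3229, 3039 and 1764 CPM against 3781, 3425 and 3342 CPM (-0.37 ± 0.24, edgeR adjusted p = 0.491). Neither arm overlapped between the groups. Without replicate 3 the log2 fold changes were -0.27 ± 0.09 and -0.13 ± 0.05 (edgeR adjusted p = 0.218 and 0.287). miR-433-5p stood at 9.20, 9.24 and 4.88 CPM against 10.9, 10.8 and 9.98 CPM, from 63 to 149 counts a library (-0.41 ± 0.29, edgeR adjusted p = 0.496; -0.16 ± 0.10 and 0.459 without replicate 3). For miR-431-3p the log2 fold change of 0.96 ± 0.52 came to 0.07 ± 0.07 without replicate 3. The groups overlapped for miR-431-5p, miR-433-3p and both arms of miR-434.

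The authors' deposited table gives shTRAX over control in R6/2 as a fold of 1.27 for miR-127-5p, with a p-value of 0.0313 and an adjusted p-value of 0.460. The authors' deposited table of 83 selected miRNAs in R6/2, where the count tables hold 1915 names, holds 1 of the 10 members, miR-127-5p. The heading of that selection names a fold change cutoff. In the authors' full R6/2 results 1 row has an adjusted p-value under 0.05. For miR-127-3p the authors' deposited table gives a fold of 1.26 with an adjusted p-value of 0.658, and for miR-136-5p a signed fold of -1.60 with 0.779.

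In WT mice no member passed under shTRAX, where 0.15% of all miRNAs tested did, and DESeq2 called none of the members. At an unadjusted p under 0.05 edgeR gave 1 of 10, miR-136-5p, against 7.52% of all. The log2 fold change was above 0 for 9 of 10 members (10 of 10 under total count scaling), with a median of 0.11 against -0.01 over all miRNAs, of which 48% were above 0. The groups did not overlap for 3 of 10, all higher, against 15% of all miRNAs, 7.07% being higher. These 3 were miR-136-5p, miR-127-5p and miR-433-3p.

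miR-136-5p stood at 1220, 1338 and 1274 CPM in WT shTRAX and at 1074, 1122 and 1104 CPM in WT control (0.21 ± 0.09, edgeR unadjusted p = 0.0476, adjusted p = 0.609). miR-127-5p stood at 833, 882 and 1052 CPM against 800, 802 and 797 CPM (0.20 ± 0.11, edgeR adjusted p = 0.691). miR-433-3p stood at 57.5, 47.4 and 50.5 CPM against 46.7, 47.0 and 41.8 CPM (0.20 ± 0.12, edgeR adjusted p = 0.741). In each case the lowest shTRAX library lay above the highest control library. The widest difference was that of miR-433-5p, at 6.63, 13.2 and 11.9 CPM against 7.09, 6.74 and 8.11 CPM (0.53 ± 0.25, edgeR adjusted p = 0.629), where WT shTRAX replicate 1 lay below every control. Without that library, 1 member, miR-433-5p, was called (0.75 ± 0.14, edgeR adjusted p = 0.0294), in a fit that called 57 miRNAs in place of 1. miR-127-3p had means of 11399 ± 597 and 10893 ± 407 CPM (0.06 ± 0.08, edgeR adjusted p = 0.843).

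The difference of the shTRAX effect between the genotypes was tested as an interaction over 12 libraries. No member passed, and edgeR called 0% of 689 miRNAs, while DESeq2 called 2 and none of the members. At an unadjusted p under 0.05 edgeR gave 1 of 10 against 8.85% of all. That member was miR-433-5p, with an interaction of -0.97 ± 0.40 on the log2 scale (edgeR unadjusted p = 0.0337, adjusted p = 0.469), and -0.75 ± 0.33 without R6/2 shTRAX replicate 3 (edgeR adjusted p = 0.500). miR-136-5p, above control in WT and below it in R6/2, had -0.91 ± 0.49 (edgeR adjusted p = 0.469), and without that library -0.53 ± 0.12 (edgeR unadjusted p = 0.00138, adjusted p = 0.193). These were the 2 of 10 members at an unadjusted p under 0.05 without that library (9.86% of 700 miRNAs), where edgeR again called 0%. For miR-127-3p the interaction was 0.29 ± 0.22 with and 0.02 ± 0.08 without that library (edgeR adjusted p = 0.496 and 0.967).

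The ratio of the 5p to the 3p arm within a library needs no scaling between libraries. The miR-127 hairpin gave log2 ratios of 5p to 3p counts of -4.17, -4.18 and -4.26 in R6/2 control and of -3.72, -3.82 and -3.75 in WT control. The groups did not overlap, and the ratio was lower by 0.43 on the log2 scale in R6/2, with means of -4.20 ± 0.05 and -3.77 ± 0.05 (SD, n = 3 each). The exact two-sided permutation p was 0.1, the smallest that 3 against 3 libraries allow, and 0.222 after Benjamini-Hochberg adjustment over 20 tests of 5 hairpins and 4 comparisons. Under shTRAX the miR-127 ratios were -4.06, -4.14 and -4.32 in R6/2 and -3.73, -3.65 and -3.52 in WT, again without overlap, a difference of -0.54 and of -0.47 without R6/2 shTRAX replicate 3. So the 6 R6/2 libraries lay below the 6 WT libraries for this ratio. How many other hairpins separate in this way over all 12 libraries was not counted. The 3p arm of miR-127 has 59.1% GC and the 5p arm 54.5%, and the control groups differ in their GC trend as given above. With the GC offsets the log2 fold change between the control groups was 0.51 for miR-127-3p and 0.04 for miR-127-5p.

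Under control AAV 3 of the 5 hairpins did not overlap in this ratio, against 52.6% of 137 hairpins with both arms at a mean of at least 50 counts. A difference at least as far from 0 as that of miR-127 was found in 24.1% of the 137, and under shTRAX AAV in 29.9%. miR-434 had log2 ratios of -0.65, -0.41 and -0.47 in R6/2 control against -0.82, -0.84 and -0.78 in WT control, and miR-433 had -2.30, -2.02 and -2.32 against -2.71, -2.80 and -2.36. Both were higher in R6/2 control, by 0.30 and 0.41 on the log2 scale (exact permutation p = 0.1 each, adjusted 0.222). The 5p and 3p arms have 50% and 45.5% GC in miR-434 and 45.5% and 54.5% in miR-433. The part of the GC trend in these ratios was not tested. Under shTRAX AAV the genotypes did not overlap for miR-127, miR-136 and miR-431, against 30.7% of the 137, and miR-433 and miR-434 overlapped. The same 3 hairpins did not overlap without R6/2 shTRAX replicate 3, against 42.3%, with differences of -0.38 for miR-136 in place of -0.70 and of -0.55 for miR-431 in place of -1.08.

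Under shTRAX in R6/2 the 5p to 3p ratio was lower without overlap for miR-136, miR-431 and miR-433, against 26.3% of the 137 hairpins. The differences were -0.45, -0.92 and -0.54 on the log2 scale (exact permutation p = 0.1 each, adjusted 0.222), and -0.13, -0.39 and -0.29 without replicate 3, where 2 against 3 libraries allow no p under 0.2. Without that library miR-127 did not overlap either, higher under shTRAX by 0.10, so that 4 of 5 hairpins did not, against 35.8%. In WT none of the 5 hairpins was free of overlap between shTRAX and control, against 11.7% of the 137.

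**Figure D4:**
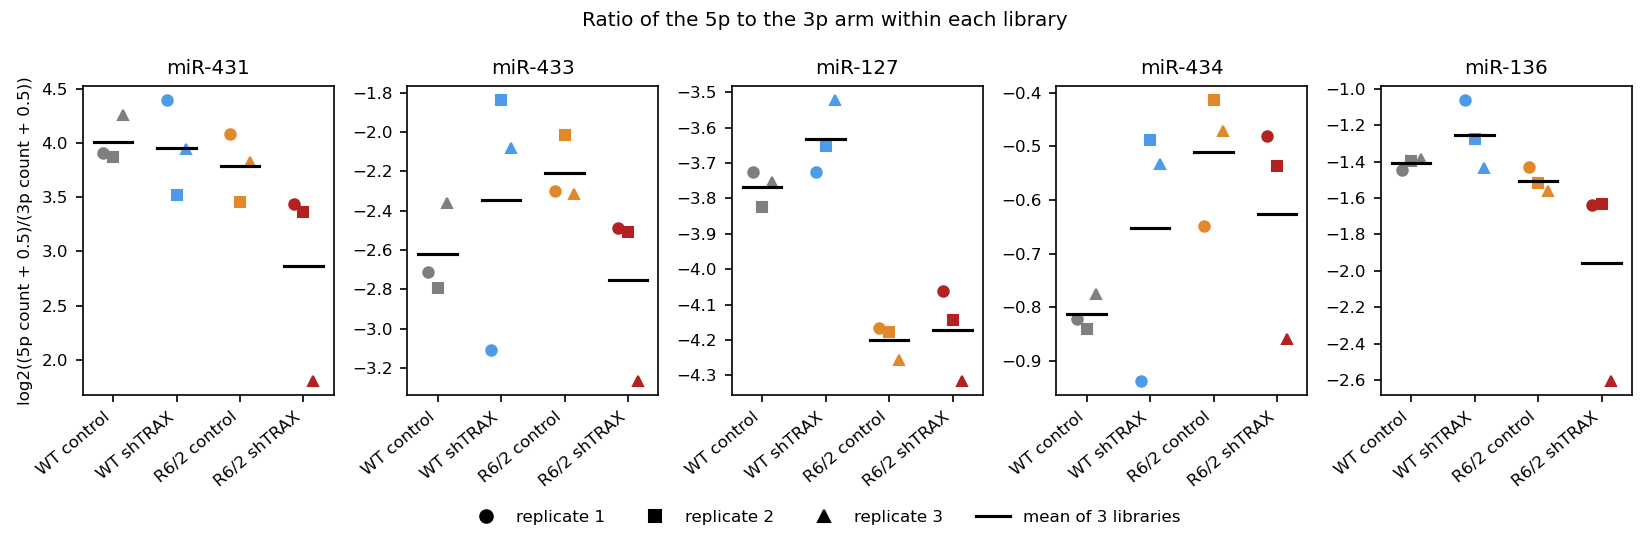
Log2 ratio of 5p to 3p counts (vertical axes differ between panels) for the 5 hairpins in the 12 libraries; symbols mark the replicate and bars the mean of 3 libraries. For miR-127 the R6/2 control libraries lie at -4.26 to -4.17 and the WT control libraries at -3.82 to -3.72, and R6/2 shTRAX replicate 3 is the lowest library in every panel but that of miR-434.

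As a share of a library's mature miRNA counts, the 10 members took 2.25 ± 0.05% in WT control, 2.49 ± 0.06% in R6/2 control, 2.39 ± 0.07% in WT shTRAX and 2.71 ± 0.25% in R6/2 shTRAX (SD, n = 3 each). The shares ran from 2.42% to 2.53% in R6/2 control and from 2.22% to 2.31% in WT control, without overlap (exact permutation p = 0.1, the smallest possible). Without miR-127-3p the means were 1.13% in both control groups (exact permutation p = 0.9). Under shTRAX the members without miR-127-3p took 1.01 ± 0.12% in R6/2 and 1.21 ± 0.03% in WT (exact permutation p = 0.1). R6/2 shTRAX replicate 3 held 3.00% in members, and replicates 1 and 2 held 2.55% and 2.58%, above the 3 WT shTRAX libraries. In those 2 libraries the mean without miR-127-3p was 1.09%, below each WT shTRAX library (exact permutation p = 0.2, the smallest possible).

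The miRNAs whose log2 CPM tracked a member most closely over the 12 libraries were sought among 390 others with a mean of at least 10 CPM. They are listed as a description, since the libraries share groups, depth and the GC trend. For miR-127-3p they were let-7f-5p (Pearson's r 0.99), let-7e-5p (0.98) and let-7c-5p (0.98), and the same 3 led without R6/2 shTRAX replicate 3 (0.96, 0.95 and 0.95). For miR-434-3p they were miR-129-2-3p (0.92), miR-7689-3p (0.91) and miR-329-3p (0.88). Without that library miR-26a-5p (0.92) took the place of miR-329-3p (0.89). For miR-136-3p they were miR-30e-5p, miR-540-5p and miR-29c-5p (0.98, 0.98 and 0.97), for miR-431-5p miR-376c-3p, miR-872-5p and miR-26a-5p (0.70, 0.70 and 0.69), and for miR-433-3p miR-181c-5p, miR-330-5p and miR-181a-1-3p (0.71, 0.63 and 0.62). With that library left out, the list of miR-136-3p became miR-31-3p (0.96), miR-9-5p (0.95) and miR-30e-5p (0.92), and that of miR-431-5p became miR-488-3p, miR-664-3p and miR-872-5p (0.75, 0.74 and 0.74). For miR-433-3p the same 3 remained, led by miR-330-5p (0.73). Of the miRNAs named here, miR-329-3p, miR-540-5p and miR-376c-3p also belong to the Dlk1-Dio3 region, and each of these left its list without that library. None of the members stands in these lists, since they were drawn from outside the group.

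The remaining miRNAs of the Dlk1-Dio3 region, which flank the Rtl1 hairpins on both sides, were read from a list of 100 mature names placed there by the annotation. Under control AAV 37 of the 80 tested had a log2 fold change above 0 between R6/2 and WT, with a median of -0.07 (27 of 80 above 0 under total count scaling). Of the 10 anti-Rtl1 miRNAs 8 were above 0 (7 under that scaling), with a median of 0.15. Of the 80 flanking miRNAs, 2 were called higher in R6/2 and 4 lower (edgeR), against 7.26% and 3.34% of all 689 miRNAs tested. The flanking counts were 12 and 22 without R6/2 shTRAX replicate 3, where 17.1% and 12.9% of 700 miRNAs were called higher and lower. They were 1 to 2 and 0 without any 1 of the 6 control libraries. miR-679-5p went from 4.07 ± 0.61 CPM in WT control to 9.26 ± 0.50 CPM in R6/2 control (1.18 ± 0.19, edgeR adjusted p = 0.00276). miR-487b-3p went from 311 ± 3.7 to 213 ± 16 CPM (-0.55 ± 0.14, edgeR adjusted p = 0.0273). Under shTRAX AAV 32 of 80 were above 0 (23 under total count scaling) with a median of -0.13. Of these 80, 5 were called higher and 10 lower in R6/2 (edgeR), against 7.98% and 5.81% of all 689 miRNAs. Of the anti-Rtl1 miRNAs 3 of 10 were above 0 in that comparison (2 under total count scaling), with a median of -0.08. Of all 689 miRNAs tested 53% were above 0. Without R6/2 shTRAX replicate 3, 24 of 80 flanking miRNAs and 4 of 10 anti-Rtl1 miRNAs were above 0, against 50.6% of all miRNAs tested. Of the flanking miRNAs 6 were then called higher and 17 lower, against 11.3% and 8.86% of 700 miRNAs. Without 1 of the other libraries 1 to 9 were called higher and 2 to 9 lower. The difference between the flanking miRNAs and the anti-Rtl1 miRNAs was not tested.

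Under shTRAX in WT the flanking miRNAs had 53 of 80 log2 fold changes above 0 (55 under total count scaling) with a median of 0.11, and the 10 anti-Rtl1 miRNAs had the same median of 0.11. Of the 80, 1 was called, miR-496a-3p (1.20 ± 0.12, edgeR adjusted p = 0.00900), at 203 ± 25 CPM in WT shTRAX against 88.2 ± 4.4 CPM in WT control. Without WT shTRAX replicate 1, 14 were called higher and 1 lower, where 23 and 34 of all 678 miRNAs were. Without WT shTRAX replicate 2 or any 1 of the controls no flanking miRNA was called. Under shTRAX in R6/2, 42 of 79 were above 0 (40 under total count scaling) with a median of 0.05. Of these 79, edgeR called none, and 15 had an edgeR unadjusted p under 0.05, against 10.4% of all miRNAs. The smallest p belonged to miR-412-5p (1.33 ± 0.25, edgeR unadjusted p = 0.00135) and miR-376c-3p (-0.72 ± 0.14, edgeR unadjusted p = 0.00197), both with an edgeR adjusted p of 0.421. Leaving out R6/2 shTRAX replicate 3, 44 of 79 were above 0 with a median of 0.08, and 21 had an edgeR unadjusted p under 0.05 (17.2% of all). In that fit edgeR called 3 of the 79, against 0.602% of 664 miRNAs. These were miR-496a-3p (1.35 ± 0.11, edgeR adjusted p = 0.0167), miR-412-5p (1.04 ± 0.10, edgeR adjusted p = 0.0234) and, lower under shTRAX, miR-376c-3p (-0.80 ± 0.09, edgeR adjusted p = 0.0236).

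**Figure D5:**
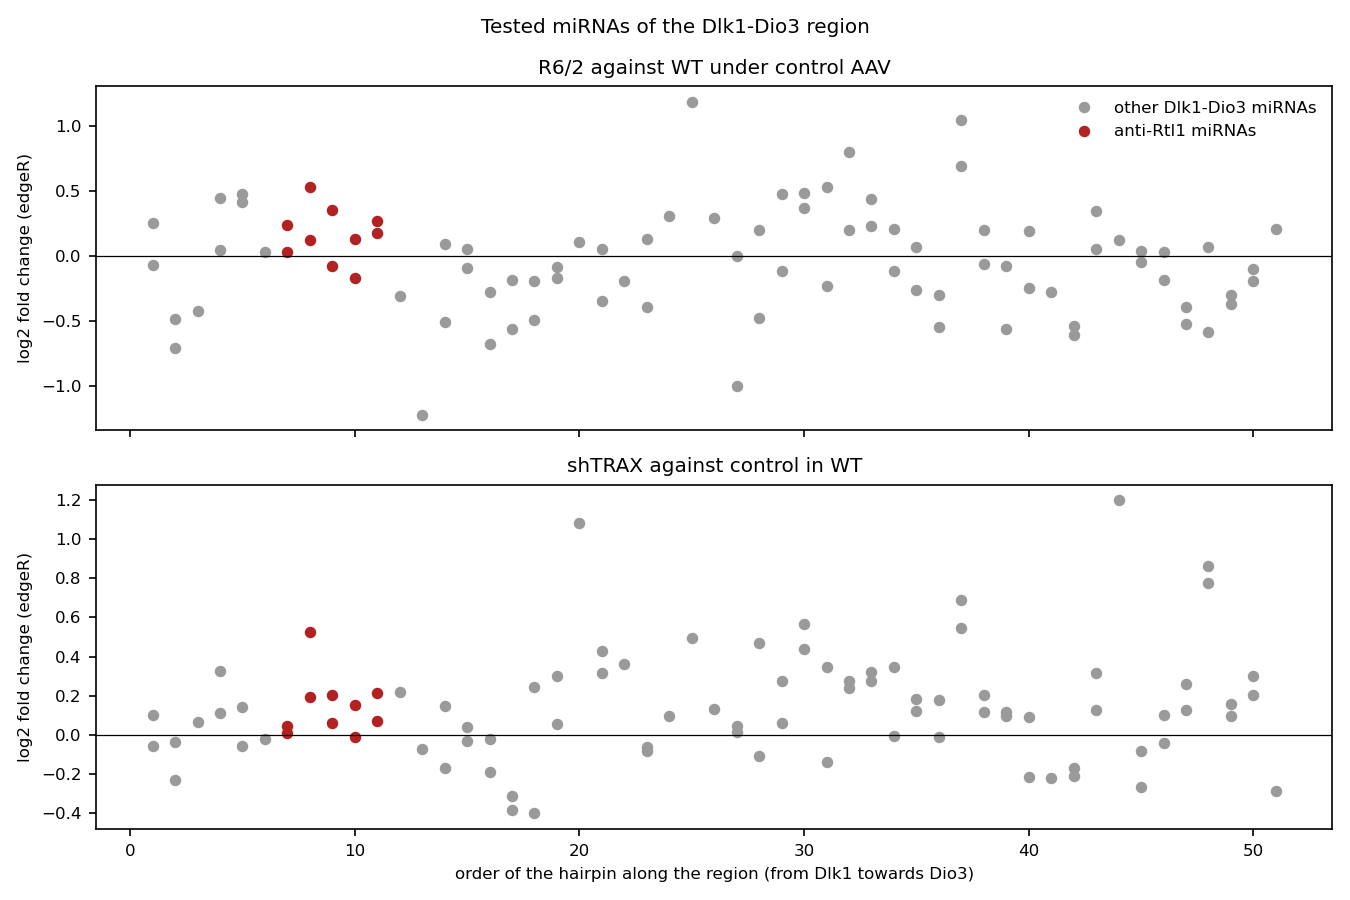
Log2 fold changes (edgeR, vertical axes) of tested miRNAs of the Dlk1-Dio3 region in the order of their hairpins from Dlk1 towards Dio3 (horizontal axis), with anti-Rtl1 miRNAs in red; the 2 panels share controls in WT. Under control AAV 8 of 10 red points lie above 0, against 37 of 80 grey points (7 and 27 under total count scaling), and under shTRAX in WT 9 of 10 and 53 of 80 (10 and 55). Not shown are the genotypes under shTRAX AAV, with 3 of 10 and 32 of 80 above 0. Also not shown is shTRAX in R6/2, with 5 of 10 and 42 of 79, where 49.2% of all miRNAs tested were above 0.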

How the data were processed

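Small RNA from mouse striatum was made into libraries with a kit that adds molecular identifiers, per the labels' protocols. The submitters' processing notes name bcl2fastq 2.20, Trimmomatic and the build GRCm38. The aligner and counter, any collapsing of identifiers, and the extraction method of each sample were not given in the sources used here. Per the file headers, the authors deposited raw counts in 2 tables, 1 per genotype, with 2059 rows each for a mature miRNA and its precursor. A second value per library, deposited as RPM by the authors, lay within 0.118 of the count scaled to its column total. The p-value columns, and the signed fold, which is a score because a fall is written as minus the inverse ratio, were deposited by the authors and read only as their own results. For the 81 names with several precursors the most abundant row was used; each member has 1 row.

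The counts went into edgeR 4.0.16 (R 4.3.3) and its quasi-likelihood test, with TMM scaling, a minimum count of 10 in filterByExpr, p-values adjusted over all miRNAs tested by Benjamini and Hochberg, and 0.05 as threshold. The shTRAX effect was fitted on the 6 libraries of a genotype, and genotype differences and the interaction on all 12, for which both tables were scaled together as raw counts. Arm ratios used a pseudocount of 0.5 count and, like shares, exact two-sided permutation tests over libraries. Alternatives were other scalings and filters, DESeq2 1.42.0, limma 3.58.1 on log2(RPM + 1) for the interaction, averaged precursor rows, other libraries in the fit, the replicate number as a block, offsets from a loess fit on the GC content of the mature sequence (known for 564 of 689 tested miRNAs), and leaving out each library. The procedure was also run on simulated counts. These had no GC trend and no outlying library, so they do not show how the procedure handles either. The members, the lists and the tests were chosen with earlier results of these data known. Every member is named; likeness takes the 3 closest miRNAs for the more abundant arm of each hairpin, and flanking miRNAs are named by smallest p. Of 103 flanking names, 3 of miR-3070 were dropped because the annotation names their hairpins differently. Counting error was not set against the spread between libraries for each member. That spread could be narrow, as for miR-127-5p in WT control (799.8 ± 2.4 CPM, SD, from 12257 to 13890 counts a library). miR-433-5p rests on 63 to 191 counts a library.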

Additional observations from a re-analysis of the deposited data

Results flagged for a closer look

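The 5p to 3p ratio of miR-433 differed in opposite directions between R6/2 and WT under the control AAV and under the shTRAX AAV. Under control AAV every R6/2 library lay above the WT mean, by 0.31 to 0.61 and on average by 0.41 on the log2 scale. Under shTRAX AAV every R6/2 library lay below the WT mean, by -0.14 to -0.92 and on average by -0.41. The first difference minus the second is 0.82, and this difference was not tested. The lowest value under shTRAX AAV is that of R6/2 shTRAX replicate 3. Without that library the difference under shTRAX AAV was -0.15 and the first minus the second 0.57; without WT shTRAX replicate 2 they were -0.16 and 0.57, and without WT shTRAX replicate 1 -0.79 and 1.20. The WT shTRAX libraries spread widely, from -3.11 in replicate 1 to -1.84 in replicate 2, and overlapped with R6/2 shTRAX (exact permutation p = 0.4). The 5p arm of miR-433 has 45.5% GC and the 3p arm 54.5%, and the libraries differ in their GC trend as given above. The part of that trend in this ratio was not tested. miR-433-5p rests on 63 to 191 counts a library.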

How the results depend on the processing

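Of 975 recomputed log2 fold changes of members, 911 kept their direction and side of the threshold, 11 crossed to an adjusted p under 0.05, 3 lost it and 50 changed sign, none of these 50 with an adjusted p under 0.05. Without 1 library at a time, the number of members called ran from 0 to 1 for shTRAX in WT (1 without WT shTRAX replicate 1), from 0 to 2 for R6/2 against WT under control AAV (2 without R6/2 shTRAX replicate 3) and from 0 to 2 for R6/2 against WT under shTRAX AAV, where the main count is 1. Under control AAV the count of members went from 0 to 1 with GC offsets, where 88 of 689 miRNAs were called. It was 1 with the replicate block and GC offsets (76 of 689) and 3 with only the 6 libraries compared (232 of 660). Under shTRAX AAV it went to 0 with only the 6 libraries compared, where 2 of 650 miRNAs were called. With all deposited rows as denominator, the members' share differed by 0.13 percentage points between the control groups in place of 0.24, and no other share moved beyond the spread. That denominator is larger, so the shares themselves were lower in every library. They ran from 1.43% to 1.49% in R6/2 control and from 1.31% to 1.37% in WT control, again without overlap. Signs changed as follows, and the cause was not tested. For shTRAX in R6/2, GC offsets gave -0.0091 for miR-127-3p and -0.14 for miR-433-3p, and with the block -0.0098 and -0.16. For shTRAX in WT, miR-434-3p came to 0.0039 under total count scaling and 0.0074 under the CPM filter, miR-431-5p to -0.022 with no filter, -0.016 with the block and -0.027 with averaged precursor rows, and miR-136-3p to -0.0067 with block and GC offsets. For R6/2 against WT under control AAV, miR-431-5p came to -0.0018 under RLE scaling, -0.0018 in DESeq2 and -0.041 under total counts, and miR-127-5p to 0.039 with GC offsets and 0.040 with the block too. For R6/2 against WT under shTRAX AAV, miR-127-5p came to -0.031 under total counts, miR-433-3p to 0.0046 under the CPM filter, and GC offsets gave -0.056 (miR-127-5p), 0.072 (miR-136-3p) and 0.020 (miR-434-3p), and with the block -0.053, 0.073 and 0.020. For the interaction, GC offsets gave -0.13 for miR-127-3p and -0.095 for miR-127-5p, and -0.13 and -0.093 with the block.

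Leaving out 1 library gave these ranges where a sign changed. For shTRAX in R6/2 they were -0.0043 to 0.12 (miR-433-3p) and -0.054 to 0.033 (miR-434-5p). For shTRAX in WT they were -0.012 to 0.10 (miR-431-3p), -0.21 to 0.19 (miR-431-5p), -0.082 to 0.043 (miR-434-3p) and -0.019 to 0.16 (miR-136-3p). For R6/2 against WT they were -0.097 to 0.20 (miR-431-5p) under control AAV and, under shTRAX AAV, -0.080 to 0.18 (miR-127-5p), -0.38 to 0.029 (miR-136-3p), -0.096 to 0.026 (miR-433-3p) and -0.18 to 0.024 (miR-434-5p). For the interaction they were -0.011 to 0.11 (miR-434-3p), -0.021 to 0.26 (miR-127-5p) and -0.024 to 1.13 (miR-431-3p), the last -0.024 without R6/2 shTRAX replicate 3.

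Correlations between same-numbered libraries of their deviations from the group mean ran from -0.39 to 0.31, with at least 1 negative value in 3 of 4 comparisons. For shTRAX against control in R6/2 they were 0.2, 0.011 and 0.183. With 3 libraries a group these values cannot decide whether replicate numbers pair the libraries. With the replicate number as a block the members called stayed at 0, 0, 0, 1 and 0 in the 5 comparisons, and miR-127-3p under shTRAX AAV had 0.63 ± 0.15 (edgeR adjusted p = 0.0337); over all miRNAs the block moved the calls under shTRAX AAV from 95 to 59. Over the alternatives, miRNAs called among all tested ran from 0 to 13 for shTRAX in R6/2, from 0 to 57 in WT, from 39 to 232 for the genotypes under control AAV and from 2 to 141 under shTRAX AAV, and from 0 to 2 for the interaction. With 3 libraries a group no exact permutation p can fall below 0.1, and miR-433-5p had the fewest counts; at a mean below 10 CPM it has no value under the CPM filter.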
